A study of Mus musculus with 12 samples.

Results

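The genes described here are 8 transcription regulators of the pluripotent state, Pou5f1 (which encodes OCT4), Sox2, Nanog, Sall4, Utf1, Klf4, Myc and Mycn. They were chosen by name, with earlier results of these data known. Each was read from the probe set that the array annotation assigns to it alone. That gave 8 of the 19938 genes measured by a probe set of their own, with 1 probe set per gene, so no second probe set was there as a check. The study profiled 4 mouse lines of iPS (induced pluripotent stem) cells, made by turning somatic cells into cells that resemble embryonic stem cells. All 4 lines came from embryonic fibroblasts of the strain C57BL/6J, were made with 3 factors that the labels do not name, and were grown in embryonic stem cell medium. The labels assign competence for tetraploid complementation, the formation of a whole mouse by cells placed in a tetraploid host embryo, to LiPS-45 and LiPS-57 and deny it to LiPS-47 and LiPS-50. Each line was represented by 3 cultures given as biological repeats, with 1 Affymetrix array per culture and 12 arrays in all. The array reads total RNA, and RNA of the introduced factors was not separated from that of the cell's own genes.

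OCT4 and SOX2 bind DNA together at joined octamer and SOX elements, and with NANOG they form the core of the circuit that holds embryonic stem cells in self-renewal. SALL4 is a zinc finger protein that binds alongside OCT4 and NANOG, and UTF1 is a chromatin-bound protein of pluripotent cells whose gene is a classical target of OCT4 and SOX2. KLF4, a zinc finger factor of the naive state, and MYC, a driver of growth and ribosome production, complete the classical reprogramming set, and MYCN is a MYC relative active in embryonic cells. The series asked how expression differs between lines with and without competence.

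Values are log2(intensity + 1) unless a fold or a raw intensity is named, spreads are standard deviations (SD) over 3 cultures, and a gene was called when its limma p, adjusted by the Benjamini-Hochberg method over all 28939 probe sets tested, was under 0.05. The quartiles of the deposited values differed by at most 0.0954 between arrays, and correlations between arrays of the same line lay between 0.996 and 0.997. All 8 genes were well expressed, with mean values between the 83.6th and the 98.1th percentile of probe set means. The number of arrays limits the precision, and the p-values reflect only how far cultures of the same line varied. LiPS-50 stood apart from the other lines over the whole array, as it also did for most of the genes here.

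Across the 4 lines, Mycn, Myc, Sall4 and Utf1 differed, and each had its lowest line mean in LiPS-50. Pou5f1, Sox2, Nanog and Klf4 did not pass the test over the 4 lines. The moderated F test thus called 4 of 8 genes, against 14.9% of all probe sets. The span between the highest and the lowest line mean was 0.61 (1.53-fold) for Mycn, 0.36 (1.29-fold) for Myc, 0.30 (1.24-fold) for Sall4 and 0.28 (1.22-fold) for Utf1. For the other 4 genes it lay between 0.18 and 0.22, at most 1.16-fold. The adjusted p was 8.7e-05 for Mycn, 0.00793 for Sall4, 0.0185 for Myc and 0.0393 for Utf1. Without LiPS-50 replicate 2 the count of called genes fell to 1, and without LiPS-50 replicate 1 it fell to 2. For the genes that were not called the adjusted p was 0.103 (Pou5f1), 0.129 (Nanog), 0.138 (Sox2) and 0.210 (Klf4). Pou5f1 gained a call with median centring (0.0426), with a pseudocount of 16 (0.0262) and without dim probe sets (0.0353), and Nanog gained one with a pseudocount of 16 (0.0454), which brought the count to 6 with that pseudocount.

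**Figure D1:**
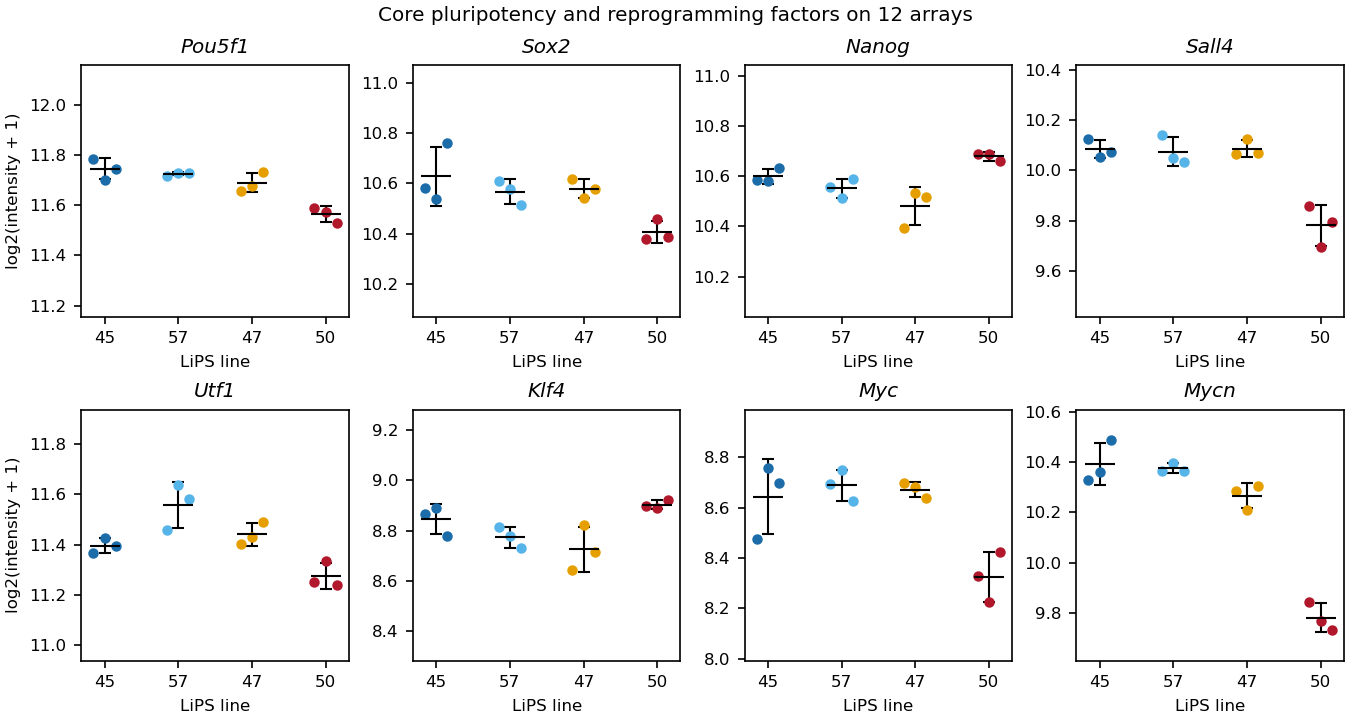
Each panel shows 1 gene, with log2(intensity + 1) on the y axis over a span of 1 unit and the 4 lines on the x axis; points are the 12 arrays, and the horizontal mark and bar give the mean and SD of 3 cultures. The 3 LiPS-50 arrays lie below all 9 others for Pou5f1, Sox2, Sall4, Utf1, Myc and Mycn, and above all 9 for Nanog.

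The order of the arrays showed the same split more finely. For 6 of the 8 genes, all 3 LiPS-50 arrays lay below all 9 others, which held for 9.54% of all probe sets. For Nanog they lay above all 9 others, which held for 8.81% of probe sets. Klf4 was the exception: its LiPS-50 values, 8.89 to 8.92, met the highest of the others at 8.89. At the adjusted threshold Myc, Mycn and Sall4 were lower in LiPS-50 than in each other line, 3 of 8 genes against 4.57% of probe sets, and 0 of 8 were higher than in each other line, against 5.86%. The comparisons with LiPS-45, LiPS-57 and LiPS-47 share the 3 LiPS-50 arrays and so are not independent.

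Mycn differed most. Its 3 arrays read 10.33, 10.36 and 10.49 in LiPS-45, 10.36, 10.40 and 10.37 in LiPS-57, 10.28, 10.21 and 10.31 in LiPS-47, and 9.84, 9.77 and 9.73 in LiPS-50. In raw intensity this was 1184 to 1434 on the 9 arrays of the other lines and 850 to 919 in LiPS-50, so the groups were well apart. LiPS-50 was lower by 1.53-fold against LiPS-45 (log2 difference LiPS-45 minus LiPS-50 of 0.61, SE 0.0613, adjusted p = 3.87e-05), by 1.51-fold against LiPS-57 (adjusted p = 6.19e-05) and by 0.49 on the log2 scale against LiPS-47 (adjusted p = 2.3e-04). These 3 calls held under every alternative that was run, each culture left out in turn included. Among the remaining lines the order was LiPS-45 at 10.39 ± 0.0829, LiPS-57 at 10.38 ± 0.0192 and LiPS-47 at 10.27 ± 0.0498 (SD, n = 3 each). The arrays of LiPS-47 lay below those of both competent lines, but those differences of 0.13 and 0.11 did not pass the test (adjusted p = 0.585 and 0.782).

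Myc followed with a smaller difference and more spread. LiPS-50 read 8.33, 8.22 and 8.42, against 8.47, 8.76 and 8.70 in LiPS-45, 8.70, 8.75 and 8.63 in LiPS-57, and 8.70, 8.68 and 8.64 in LiPS-47. The first LiPS-45 culture came close to the highest LiPS-50 culture, and the other arrays lay further off. LiPS-50 was 1.27-fold lower than LiPS-47 (log2 difference 0.35, SE 0.08, adjusted p = 0.0105), 1.29-fold lower than LiPS-57 (adjusted p = 0.00861) and lower than LiPS-45 by 0.32 on the log2 scale (adjusted p = 0.0173). The call against LiPS-45 was lost without LiPS-45 replicate 2 or 3 or LiPS-50 replicate 2 (adjusted p = 0.0691 to 0.0696) and with these 2 lines fitted alone (0.066). The means of LiPS-57, LiPS-47 and LiPS-45, at 8.69 ± 0.0619, 8.67 ± 0.0318 and 8.64 ± 0.149 (SD, n = 3 each), did not differ beyond their spread.

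Sall4 was almost level in 3 lines and lower in LiPS-50. Its arrays lay between 10.05 and 10.12 in LiPS-45, between 10.03 and 10.14 in LiPS-57 and between 10.07 and 10.13 in LiPS-47, whereas LiPS-50 read 9.86, 9.69 and 9.79. The line means were 10.09 ± 0.034 (LiPS-47), 10.08 ± 0.0365 (LiPS-45) and 10.07 ± 0.0585 (LiPS-57). They contrasted with 9.78 ± 0.0817 in LiPS-50 (SD, n = 3 each). The fold was 1.24 against LiPS-47 (log2 difference 0.30, SE 0.0609, adjusted p = 0.00441), 1.23 against LiPS-45 (adjusted p = 0.00497) and 1.23 against LiPS-57 (adjusted p = 0.00642). All 3 calls held under every alternative run, while the test over the 4 lines lost its call without LiPS-50 replicate 2 (adjusted p = 0.0536).

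Utf1 separated LiPS-57, its highest line, from LiPS-50, its lowest. The LiPS-57 arrays read 11.46, 11.64 and 11.58 and the LiPS-50 arrays 11.25, 11.33 and 11.24, a 1.22-fold difference (log2 difference 0.28, SE 0.0623, adjusted p = 0.00854). LiPS-47 at 11.44 ± 0.045 and LiPS-45 at 11.39 ± 0.0298 (SD, n = 3 each) lay between them. LiPS-50 was lower than LiPS-47 by 0.17 (adjusted p = 0.101) and lower than LiPS-45 by 0.12 (adjusted p = 0.236), which did not pass. The difference from LiPS-47 passed with a pseudocount of 16 (0.0471) and without dim probe sets (0.0463). Utf1 was also the gene with the largest difference between the competent lines, LiPS-45 being 0.16 lower than LiPS-57 with no overlap of arrays (unadjusted p = 0.0219, adjusted p = 0.542). Over the 4 lines the call for Utf1 was lost with the control probe sets included (adjusted p = 0.0525) and without any single culture other than LiPS-47 replicate 1 or LiPS-57 replicate 1 (adjusted p = 0.053 to 0.124).

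Pou5f1 and Sox2, the partners at joined octamer and SOX elements, were lower in LiPS-50 by small amounts. Pou5f1 read 11.59, 11.57 and 11.53 in LiPS-50 and 11.66 to 11.79 on the other 9 arrays, and Sox2 read 10.38, 10.46 and 10.39 against 10.51 to 10.76. The groups did not overlap for either gene. Against LiPS-45 both passed the test, Pou5f1 at 1.13-fold (log2 difference 0.18, SE 0.0529, adjusted p = 0.0359) and Sox2 at 1.16-fold (log2 difference 0.22, SE 0.0671, adjusted p = 0.0426). Against LiPS-57 and LiPS-47 the Pou5f1 differences of 0.16 and 0.13 had adjusted p-values of 0.0605 and 0.146. Those of Sox2 were 0.16 and 0.17 (adjusted p = 0.145 and 0.115). Both calls against LiPS-45 were lost with quantile normalization (adjusted p = 0.0832 for Pou5f1 and 0.075 for Sox2) and with the 2 lines fitted alone (0.104 and 0.111). For Pou5f1 the call was also lost without LiPS-45 replicate 1 or 3, any LiPS-50 culture or LiPS-57 replicate 3 (adjusted p = 0.0521 to 0.116). Sox2 kept it only without LiPS-45 replicate 2 or LiPS-47 replicate 1, the other 10 omissions giving adjusted p-values of 0.053 to 0.166, and lost it with the control probe sets included (0.0549). The Pou5f1 call against LiPS-57 was gained with median centring (adjusted p = 0.025), with a pseudocount of 16 (0.0162) and without dim probe sets (0.0207).

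Nanog and Klf4 had the opposite order, with the highest mean in LiPS-50 and the lowest in LiPS-47. Nanog read 10.69, 10.69 and 10.66 in LiPS-50, 10.59, 10.58 and 10.63 in LiPS-45, 10.56, 10.51 and 10.59 in LiPS-57, and 10.39, 10.53 and 10.52 in LiPS-47. In LiPS-50 it was 1.15-fold above LiPS-47 (-0.20 on the log2 scale for LiPS-47 relative to it, with an SE of 0.0571 and an adjusted p of 0.0344). This call was lost with median centring (adjusted p = 0.0953), with the 2 lines fitted alone (0.117) and without LiPS-47 replicate 1 or 3 or any LiPS-50 culture (0.0561 to 0.122). Against LiPS-57 and LiPS-45 the differences of -0.13 and -0.080 did not pass (adjusted p = 0.181 and 0.411). Klf4 read 8.90, 8.89 and 8.92 in LiPS-50 and 8.64, 8.82 and 8.71 in LiPS-47. Its difference LiPS-47 minus LiPS-50 was -0.18 (95% interval -0.31 to -0.043, adjusted p = 0.0752), and it passed with a pseudocount of 16 (0.0341), without dim probe sets (0.0329) and without LiPS-47 replicate 2 (0.0411). Klf4 in LiPS-45, at 8.87, 8.89 and 8.78, overlapped LiPS-50.

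**Figure D2:**
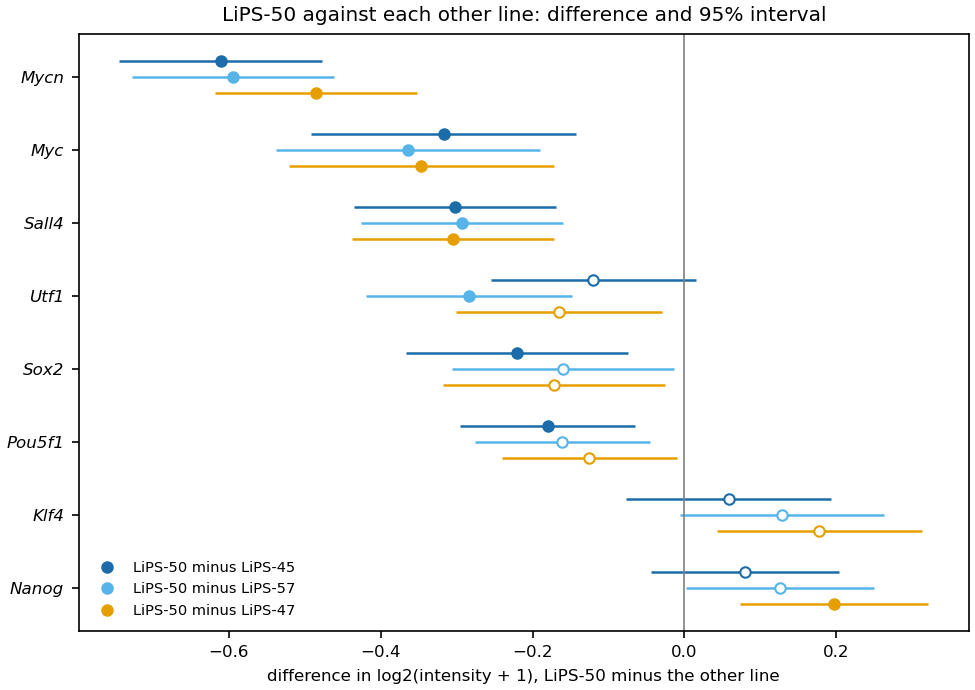
The x axis gives LiPS-50 minus another line in log2(intensity + 1), with the 95% interval from the fit of 4 line means, and the rows are the 8 genes; filled points passed the adjusted threshold of 0.05 and open points did not. Mycn lies furthest below 0, Myc and Sall4 are filled against all 3 lines, and Nanog and Klf4 lie above 0.

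In count, LiPS-50 was lower than LiPS-45 for 5 of the 8 genes (Pou5f1, Sox2, Myc, Mycn and Sall4), with 0 higher, where 16.5% of all probe sets were called. Against LiPS-57 it was lower for 4 (Myc, Mycn, Sall4 and Utf1), with 0 higher and a background of 15.6%. Against LiPS-47 it was lower for 3 (Myc, Mycn and Sall4) and higher for 1 (Nanog), with a background of 15.8%. By direction, 8.3%, 7.48% and 7.31% of probe sets were called lower in LiPS-50 in these comparisons, and 8.18%, 8.16% and 8.48% higher. The median difference of the 8 genes was 0.20, 0.22 and 0.17 in the same order, whereas the median over all probe sets lay between -0.00024 and 0.014. The call counts depended on single cultures: the count against LiPS-45 fell to 2 without LiPS-45 replicate 3 or LiPS-50 replicate 2, and to 3 without LiPS-45 replicate 1, LiPS-50 replicate 1 or 3, or LiPS-57 replicate 3.

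Among LiPS-45, LiPS-57 and LiPS-47 the 8 genes were not distinguished by the test. The limma fit called 0 of 8 in each of the 3 comparisons, where 0.266% (LiPS-45 against LiPS-57), 0.0622% (LiPS-45 against LiPS-47) and 0.159% (LiPS-57 against LiPS-47) of all probe sets were called. At an unadjusted p under 0.05 the counts were 1 (Utf1), 0 and 0 of 8, where 8.01%, 8.93% and 6.89% of all probe sets passed. The intervals bound how far the genes can have differed here. For Pou5f1 the LiPS-45 minus LiPS-47 difference was 0.055 with a 95% interval of -0.060 to 0.17. For Mycn it was 0.13, with an interval of -0.0079 to 0.26. For Nanog it was 0.12, with an interval of -0.0071 to 0.24. LiPS-47, which lacked competence, differed by at most 1.09-fold from either competent line in the mean of each of the 8 genes, and the competent lines differed between themselves by at most 1.12-fold (Utf1).

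The comparison by competence, in which line entered as a random term, called 0 of 8 genes and 0% of all probe sets, with 7.69% of probe sets and 1 of the 8 genes at an unadjusted p under 0.05. That gene was Mycn, which was 0.36 higher in the competent lines (1.28-fold, SE 0.106, unadjusted p = 0.00437, adjusted p = 0.648). Each class held only 2 lines, and the random term used 1 correlation, 0.183, shared by all probe sets. The p for Mycn therefore does not measure its own spread between lines, with means of 10.27 in LiPS-47 and 9.78 in LiPS-50. The competent arrays of Mycn lay between 10.33 and 10.49 and its other arrays between 9.73 and 10.31. They did not overlap, but most of that difference came from LiPS-50. Sall4 differed by 0.15 (SE 0.0791, adjusted p = 0.672) and Utf1 by 0.12 (SE 0.0708, adjusted p = 0.686), and both overlapped between the classes. When only the spread between cultures was taken as error, Mycn alone of the 8 passed (adjusted p = 4.85e-04).

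Markers of other cells moved with these differences. The summed intensity of 23 measured fibroblast and feeder cell genes lay between 36485 and 40544 in LiPS-50. On the other 9 arrays it lay between 23254 and 31378. Of the 23, 21 were called higher in LiPS-50 than in each other line, against 5.86% of all probe sets. In a bulk sample, fewer pluripotent cells and less RNA per cell cannot be told apart, and the part of these markers in the results was not tested. Taken relative to Pou5f1 on the same array, the log2 value of Nanog in LiPS-50 exceeded the mean of the remaining lines by 0.29 and that of Klf4 by 0.28. Relative to Pou5f1, Mycn was 0.41 lower, Myc 0.19 lower and Sall4 0.14 lower, and the values were -0.028 for Sox2 and -0.034 for Utf1. For Myc, Sox2 and Utf1 the LiPS-50 arrays overlapped the other 9 in this ratio, and for Nanog, Klf4, Mycn and Sall4 they did not. This ratio was chosen after the values were seen and was not tested.

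**Figure D3:**
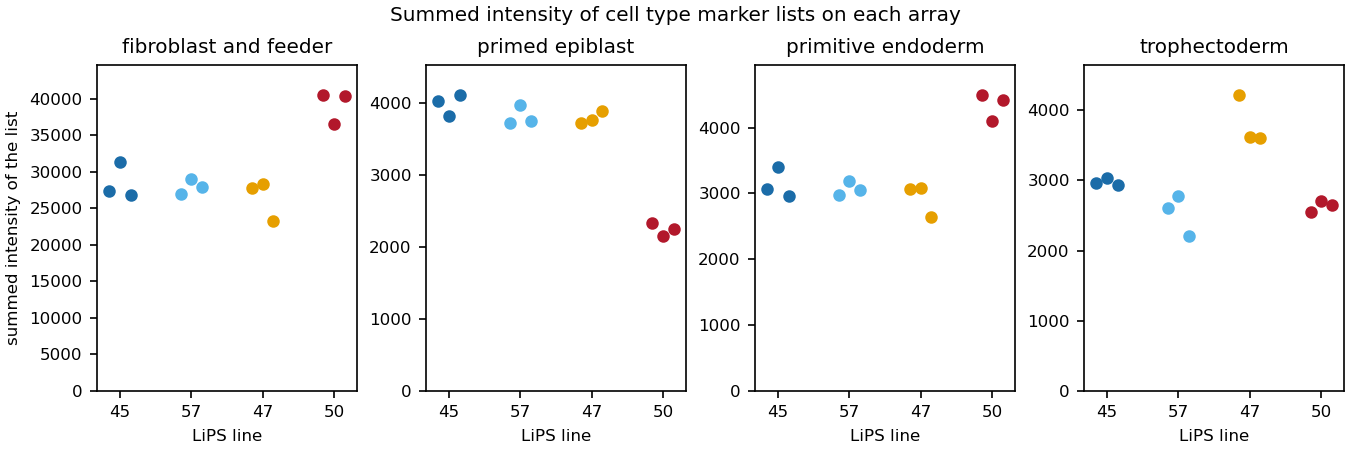
Each panel gives the summed intensity (y axis, linear, from 0) of a marker list on the 12 arrays, by line on the x axis. Points are single arrays; fibroblast and feeder genes are highest in LiPS-50, primed epiblast genes lowest in LiPS-50, and trophectoderm genes highest in LiPS-47.

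The summed primed epiblast markers, 7 measured, lay between 2149 and 2331 in LiPS-50 and between 3720 and 4117 elsewhere. Of these 7, 6 were called lower in LiPS-50 than in each other line, against 4.57% of all probe sets. The summed primitive endoderm markers, 7 measured, lay between 4099 and 4499 in LiPS-50 and 2641 and 3402 elsewhere. Sparc, Pdgfra and Dab2, 3 of these 7, were called higher than in each other line, against 5.86% of all probe sets. Among these 3, 2 stand in the fibroblast list as well. Gata4 and Gata6, the defining factors of the primitive endoderm, were level at 5.73 to 5.83 and 6.27 to 6.39 in line means. Against LiPS-45 alone, 5 of the 7 primitive endoderm markers were called, 4 higher and 1 lower in LiPS-50. In that comparison 16.5% of all probe sets were called. Of 7 trophectoderm markers, 2 (Gata3 and Tfap2c) were called higher in LiPS-50 than in each other line, against 5.86% of all probe sets. Gata3 had a mean of 6.90 in LiPS-50 and 5.71 to 5.90 elsewhere. The keratin genes Krt8 and Krt18 differed over the 4 lines (adjusted p = 0.0021 and 3.29e-04) and had their highest means in LiPS-47. Hand1 was not called (adjusted p = 0.647), and Cdx2 and Elf5 were near or below the dim limit of 5.21, which is the 40th percentile over all probe sets, with line means of 5.31 to 5.45 and 4.35 to 4.46.

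Genes that OCT4, SOX2 and NANOG are known to bind or activate did not follow a single direction. Of 19 measured, 3 (Tdgf1, Lin28a and Phc1) were called lower in LiPS-50 than in each other line, against 4.57% of all probe sets, and 5 (Fgf4, Fbxo15, Dppa5a, Tcl1 and Trp53inp1) higher, against 5.86%. Lin28a, an RNA-binding protein that blocks maturation of let-7 microRNAs, stood at 9.70 ± 0.0273 in LiPS-50 against 10.17 ± 0.0169 in LiPS-47 (SD, n = 3 each), 1.39-fold lower (adjusted p = 5.74e-05). Phc1, a Polycomb subunit, was 1.36-fold lower than in LiPS-47 (adjusted p = 3.04e-04). Tcl1, a cofactor of Akt, was 1.98-fold above its LiPS-47 level (adjusted p = 1.45e-06) and Trp53inp1, a p53-inducible gene, 1.39-fold higher (adjusted p = 1.86e-04). The median difference LiPS-47 minus LiPS-50 of this list was -0.019, against 0.014 over all probe sets.

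Partner transcription factors of the core circuit were divided in the same way. Of 22 measured in the list, Tcf3 (an E protein), Nacc1 and Otx2 were lower in LiPS-50 than in each other line. Tbx3, Prdm14 and Zfx were higher, against the same 4.57% and 5.86% of probe sets. The Tcf3 entry is the E protein gene and not Tcf7l1, so its result does not stand for that factor. Tcf7l1 was called over the 4 lines (F test, adjusted p = 0.0408) and had its lowest mean in LiPS-50, 8.58 against 8.81 to 8.90. It was not called lower there than in each other line. Otx2, which guides cells from the naive state to the epiblast, was 1.36-fold lower than in LiPS-47 (adjusted p = 0.00185), and Tcf3 was 1.30-fold lower (adjusted p = 0.00108). Tbx3, a T-box factor of the naive state, was 1.65-fold higher (adjusted p = 1.25e-04). Zfx, an X-linked zinc finger factor, was 1.37-fold higher (adjusted p = 1.89e-04), and 71.2% of 739 genes on the X chromosome were above LiPS-47 there, with a median of 1.11-fold. Esrrb, Nr5a2, Tfcp2l1, Klf5 and Stat3 were not called in the F test over the 4 lines (adjusted p = 0.148 to 0.912). That test called 10 of the 22, against 14.9% of all probe sets. Klf2 was among them (adjusted p = 0.0352), with its lowest mean in LiPS-50, 8.81 against 8.91 to 9.09.

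MYC proteins act as dimers with MAX, and the MXD proteins compete with them for it. Of 16 measured network genes, Mycl and Ruvbl2 were lower in LiPS-50 than in each other line (4.57% of all probe sets), and Mxd4 was higher (5.86%), so that 1 of 16 higher was near the background. Mycl, the L-MYC gene and the third of the family, was 0.49 lower on the log2 scale than in LiPS-47 (adjusted p = 0.00598), at 6.90 ± 0.0918 against 7.39 ± 0.123 (SD, n = 3 each). Mxd4, a MAX-binding repressor, was 0.59 higher on the log2 scale (adjusted p = 4.51e-04). Max itself was not called over the 4 lines (adjusted p = 0.549). Ruvbl2, an ATPase of chromatin remodelling complexes, was 1.17-fold lower than in LiPS-47 (adjusted p = 0.0157), a call lost without LiPS-50 replicate 1 (0.0646) or with the 2 lines fitted alone (0.0749). Its call against LiPS-45 was lost with quantile normalization, with the 2 lines fitted alone and without any LiPS-45 culture or LiPS-50 replicate 1 or 2 (adjusted p = 0.0677 to 0.115). Huwe1, an X-linked ubiquitin ligase that acts on MYC proteins, was 1.45-fold higher than in LiPS-47 (adjusted p = 0.00268) but not called against LiPS-45 (adjusted p = 0.0781). That call was gained with quantile normalization (0.0484), without dim probe sets (0.0442) and without LiPS-50 replicate 2 (0.0448). Against LiPS-45 the Mycl call was lost without LiPS-45 replicate 1 or 3 or LiPS-50 replicate 3 (0.0579 to 0.0632). Against LiPS-57 it was lost without LiPS-50 replicate 1 or 3 or LiPS-57 replicate 2 or 3 (0.0522 to 0.0694).

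Of 30 measured genes that MYC proteins are known to activate, most of them for ribosome production, 11 were called lower in LiPS-50 and 1 higher against LiPS-47, where 7.31% of all probe sets were called lower and 8.48% higher. Against LiPS-45 and LiPS-57 alike, 13 were called lower and 1 higher, with 8.3% and 7.48% of probe sets lower and 8.18% and 8.16% higher. Against each other line at once, 9 of the 30 were lower (4.57% of probe sets) and 1 was higher (5.86%), and 20 were neither. The median difference from LiPS-50 was 0.16 (LiPS-47), 0.19 (LiPS-45) and 0.16 (LiPS-57), where the median over all probe sets was at most 0.014. Polr1b, a subunit of RNA polymerase I, was 0.32 lower on the log2 scale than in LiPS-47 (adjusted p = 0.00218), Bop1, a factor of large ribosomal subunit assembly, 0.26 lower (adjusted p = 0.00619), and Gnl3, the nucleolar protein nucleostemin, 0.23 lower (adjusted p = 0.0157). The gene called higher was the cyclin gene Ccnd2, 1.69-fold higher in LiPS-50 (adjusted p = 5.16e-04). Nme2, Dkc1 and Hspe1 also had higher means in LiPS-50 than in LiPS-47, without a call. The counts of called genes depended on single cultures. Against LiPS-47 the 12 calls became 6 without LiPS-50 replicate 1 or 2, 7 without LiPS-50 replicate 3, LiPS-45 replicate 1 or 2, or LiPS-47 replicate 1 or 3, and 4 with the 2 lines fitted alone. Against LiPS-45 the 14 became 6 to 9 without LiPS-45 replicate 3 or any LiPS-50 culture, and against LiPS-57 they became 7 or 8 without LiPS-50 replicate 1 or 3 or any LiPS-57 culture. Against LiPS-45 quantile normalization gave 9, and the 2 lines fitted alone gave 7 against LiPS-45 and 7 against LiPS-57. Gnl3 lost its call against LiPS-47 without LiPS-50 replicate 1 (adjusted p = 0.0632) or with the 2 lines alone (0.0627). Against LiPS-57 it lost it without LiPS-50 replicate 1 or LiPS-57 replicate 1 or with the 2 lines alone (0.0578 to 0.0721).

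**Figure D4:**
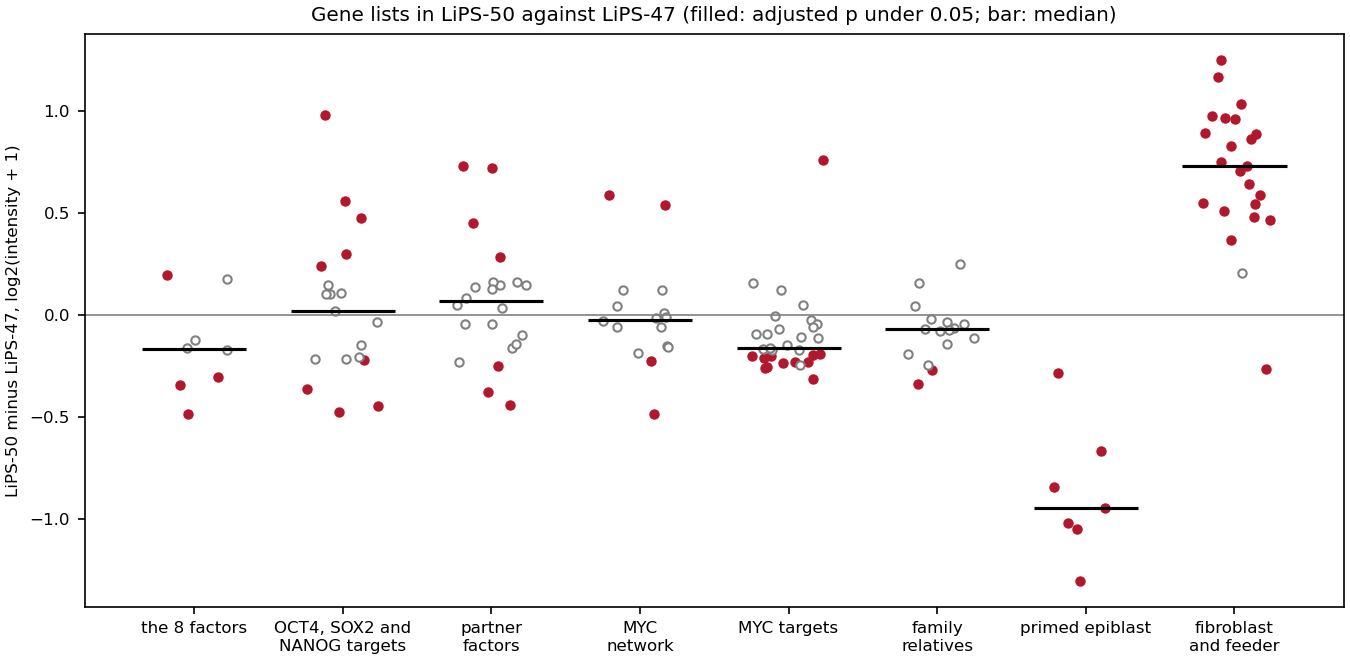
Each point is a gene, the y axis gives LiPS-50 minus LiPS-47 in log2(intensity + 1), and the x axis separates 8 gene lists; filled points passed the adjusted threshold of 0.05, open points did not, and bars are medians. MYC targets lie mostly just below 0, with Ccnd2 furthest above it and Nme2, Dkc1 and Hspe1 slightly above. Targets and partners of the core factors lie on both sides. All 7 primed epiblast genes lie below 0 and all but 1 of the 23 fibroblast and feeder genes above it.

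RefSeq promoter windows of the build GRCm38.p6 were matched for 6 of the 8 genes; Myc and Sall4 had no entry. The 250 bases before the start site are shown for 4 of them, Nanog and Klf4, whose values were highest in LiPS-50, and Sox2 and Mycn, which were lower there. The motifs searched on both strands were the octamer core ATGCAAA, the SOX core ACAATG, their joined form TTTGCATNACAATG (which contains both cores), the E-box CACGTG bound by MYC dimers, the GC box GGGGCGGGG bound by SP and KLF factors, and GGGTGNGGC as a KLF4 motif. Capitals mark every match. Nanog lies at chr6:122707239-122707488 on the plus strand, Sox2 at chr3:34649745-34649994 on the plus strand, Klf4 at chr4:55532476-55532725 on the minus strand and Mycn at chr12:12941837-12942086 on the minus strand.
Nanog: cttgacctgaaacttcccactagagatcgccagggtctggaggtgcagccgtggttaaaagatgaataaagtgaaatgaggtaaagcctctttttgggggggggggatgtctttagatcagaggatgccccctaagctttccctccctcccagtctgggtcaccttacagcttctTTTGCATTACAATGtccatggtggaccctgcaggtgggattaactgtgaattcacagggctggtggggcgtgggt
Sox2: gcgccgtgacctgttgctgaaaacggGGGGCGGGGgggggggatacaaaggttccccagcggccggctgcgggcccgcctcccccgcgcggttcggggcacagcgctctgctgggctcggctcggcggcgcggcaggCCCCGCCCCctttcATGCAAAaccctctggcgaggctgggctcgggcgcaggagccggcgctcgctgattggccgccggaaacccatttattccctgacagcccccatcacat
Klf4: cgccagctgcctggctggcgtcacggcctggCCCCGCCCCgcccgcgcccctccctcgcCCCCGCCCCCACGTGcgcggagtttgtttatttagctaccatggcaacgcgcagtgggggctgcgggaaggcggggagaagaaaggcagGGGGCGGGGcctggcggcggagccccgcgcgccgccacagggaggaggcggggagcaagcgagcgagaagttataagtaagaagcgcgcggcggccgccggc
Mycn: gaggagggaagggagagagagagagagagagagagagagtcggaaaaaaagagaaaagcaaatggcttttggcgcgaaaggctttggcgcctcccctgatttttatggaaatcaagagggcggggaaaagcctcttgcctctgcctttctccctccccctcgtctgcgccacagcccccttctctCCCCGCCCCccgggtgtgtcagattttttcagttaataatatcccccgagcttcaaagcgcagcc

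The joined element was found in 2 of 32851 windows of this length (0.00609%), and both are windows of Nanog, which has 2 listed start sites. These 2 windows overlap and hold the same element, so it is 1 site counted in both. In the window shown it runs from 75 to 62 bases before the start. The octamer core alone was in 4.12% of all windows and was also found for Sox2, 99 to 93 bases before its start. The SOX core was in 10.7% of windows. The E-box, in 6.02% of windows, was found among the 6 genes for Klf4, 182 to 177 bases before its start and directly next to a GC box. The GC box, in 10.4% of windows, was present in at least 1 window of Pou5f1, Sox2, Klf4, Mycn and Utf1 but not in those of Nanog. The KLF4 motif, in 4.57% of windows, was in none of the 6 genes' windows. A match is a description of the letters only.

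By correlation over the 12 arrays among 12952 other genes above the 40th percentile, the closest patterns were found as follows. Because 3 of 12 arrays belong to LiPS-50, which stood apart, these values mainly rank how genes separate that line, and they are given as a description. For Mycn the closest were Cpsf6 (r = 0.983), a cleavage factor of mRNA ends, Sox11 (r = 0.983) and Zic5 (r = 0.982), both transcription factors of early neural and epiblast cells. The span of Sox11 was wider than that of Mycn, from line means of 8.41 to 8.51 in the other lines to 7.45 ± 0.036 in LiPS-50 (SD, n = 3). For Sall4 they were D10Wsu102e (r = 0.987), the cell cycle kinase gene Cdk6 (r = 0.979) and Atp10a (r = 0.979). For Myc they were Obi1, Mdc1 and Trip6 (r = 0.946 to 0.961), and for Utf1 Zcchc3, Epop and H4f16 (r = 0.941 to 0.951). Fastkd3, Ap1s3 and Npy were closest to Pou5f1 (r = 0.950 to 0.971), and Dhx15, Klhl24 and Hnrnpf to Sox2 (r = 0.961 to 0.977). Nanog was closest to Snora70, the amino acid transporter gene Slc7a3 and BC065397 (r = 0.917 to 0.931), and Klf4 to Parp3, Cox6b2 and Ppcdc (r = 0.910 to 0.918). Among the 8 genes themselves Mycn and Pou5f1 had the highest correlation (r = 0.930), Nanog and Klf4 went together (r = 0.793), and Nanog and Myc had the lowest (r = -0.713).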

How the data were processed

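Total RNA of 12 cultures was extracted with Trizol, amplified as whole-transcript cDNA and hybridised to 1-colour Affymetrix arrays, per the labels' protocols. The authors deposited 1 table of linear intensity values per probe set, and GCOS 1.4 is named in the submitters' processing notes; how background and array levels were corrected is not given in the sources used here. Probe sets were named from the array annotation and matched to the RefSeq gene table of GRCm38.p6. A block of 6617 control rows was left out, which left 28939 probe sets. Values were analysed as log2(intensity + 1) in limma 3.58.1 (R 4.3.3), with 4 line means, 6 pair contrasts and a moderated F test; competence was fitted with a random block for line (duplicateCorrelation). The replicate numbers gave no sign of pairing the cultures, so no block was used in the main fit. The fit was tested on simulated data. The genes and lists were chosen with earlier results of these data known. Named list genes are up to 4 per list with the smallest F p-value, and the closest patterns are the 3 highest Pearson correlations per gene; any other gene with a value was chosen after its values were seen. Alternatives were scaling, pseudocount, filters, the replicate block, other error terms and each culture left out.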

Additional observations from a re-analysis of the deposited data

How the results depend on the processing

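No difference that passed the test reversed under any alternative. Of 1208 alternative values for the 8 genes, 1146 kept their side of the threshold, 49 lost a call and 13 gained one. Among them, 35 of 1064 differences changed sign without a call on either side. Counts of called genes were compared separately. Of 513 alternative counts for the gene lists, 65 moved. Over the 4 lines, the count of 4 called genes ranged from 1 to 4 with each culture left out. For LiPS-45 against LiPS-50 the count of 5 became 3 with quantile normalization and 2 with the 2 lines fitted alone, and ranged from 2 to 5 with each culture left out. The competence count of 0 became 1 (Mycn) when only the spread between cultures was taken as error. Each of the 8 genes has 1 probe set, so the alternative of another probe set could not be run. The number of arrays limits all tests.

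Same-numbered cultures deviated together in 4 of 18 pairs (correlation over 0.1). Their correlations lay between -0.169 and 0.121, and those of other-numbered cultures between -0.179 and 0.199. The numbers thus gave no sign of a pairing, although 3 cultures a line could miss a weak one. With the replicate number as a block, the count for LiPS-45 against LiPS-50 was 3 instead of 5, Pou5f1 (adjusted p = 0.057) and Sox2 (0.0677) losing theirs. Nanog and Sall2 lost their calls between LiPS-47 and LiPS-50 (0.052 and 0.0656), and Huwe1 gained one between LiPS-45 and LiPS-50 (0.0453).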

Other observations

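Of 16 measured relatives of the 8 genes in the SOX, POU, KLF and SALL families, the limma F test over the 4 lines called 1, against 14.9% of all probe sets. It was Pou3f1, a POU factor of the epiblast and neural lineage (F test, adjusted p = 0.0196). Its mean was 7.90 ± 0.0384 in LiPS-50, 7.99 ± 0.0387 in LiPS-57, 8.10 ± 0.0601 in LiPS-45 and 8.17 ± 0.00872 in LiPS-47 (SD, n = 3 each). Its limma call between LiPS-45 and LiPS-50 was lost without LiPS-45 replicate 1 or 3 or LiPS-50 replicate 1 or 2. It was also lost with these 2 lines fitted alone (adjusted p = 0.0839 to 0.122 over these alternatives). Sall2, a relative of Sall4, was 1.27-fold lower in LiPS-50 than in LiPS-47 (adjusted p = 0.0476) but did not pass over the 4 lines (adjusted p = 0.0693). The call against LiPS-47 was lost with the control probe sets included (0.0773), with a fit of just these 2 lines (0.103) and in 9 of the 12 single omissions, all but those of LiPS-45 replicate 3, LiPS-47 replicate 3 and LiPS-50 replicate 1 (0.0531 to 0.163).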
